A study of Mus musculus with 4 samples.

Results

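The genes described here were the immediate-early and feedback genes of the mitogen-activated protein kinase (MAPK) pathway: Egr1, Ier2, Ier3, Srf, Dusp1, Dusp4, Dusp5, Dusp6, Spry2 and Spry4. They are 10 of the 22350 protein-coding genes on chromosomes 1 to 19 and X. They were chosen by their place in the pathway and not by a measured value, but with earlier results of these data known. All 10 were found in the annotation. Chromatin accessibility was read from ATAC-seq peak lists of NMuMG cells, a cell line derived from the mammary epithelium of a normal mouse. In ATAC-seq the Tn5 transposase cuts DNA that nucleosomes leave exposed, and peaks mark where cuts pile up. The labels describe 4 samples, 1 per group, and name no genetic change. In complete medium, cells received vehicle or TGFβ1 at 5 ng/ml for 2 h. In the other experiment, cells were first kept for 6 h without serum and insulin and then received vehicle or TGFβ1 at 5 ng/ml for 10 min. Only 1 list goes with the 10 min experiment, and both of its samples point to it, so vehicle and TGFβ could not be compared there. For the TGFβ sample of this pair a treatment field gives 2 h, but the time in its title, 10 min, was used.

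In the MAPK pathway, growth factor receptors switch on RAS, which starts a relay of the kinases RAF, MEK and ERK. ERK phosphorylates ETS-family ternary complex factors such as ELK1, which sit with serum response factor on CArG boxes and switch on immediate-early genes without new protein synthesis. The same signal induces its own brakes. Dual-specificity phosphatases (DUSPs) strip phosphates from ERK and related kinases, and Sprouty proteins act further up, between the receptor and RAF. TGFβ signals mainly through SMAD proteins and can also engage MAPKs, and MAPK signals in turn reach the genome through the FOS and JUN dimers of AP-1.

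A region is an interval of a list at least 150 bp wide, joined to neighbours less than 1000 bp away. The width of a region spans the gaps between its joined intervals, and its score is the highest among them. It was assigned to a gene's start when it came within 1000 bp of a transcription start site (TSS), and to the gene's window when it overlapped the gene body ± 20 kb. Coordinates are those of mm9. The score is the authors' scaled measure of agreement between replicate peak calls (IDR), which ran from 540 to a cap of 1000. It is not a signal height. With 1 list per condition and no replicate lists, no difference between conditions could be tested. A region called TGFβ-only was in the TGFβ list with no overlap in the vehicle list, which does not show that the site was closed in vehicle. There were 19648 vehicle regions, 38532 TGFβ regions and 26732 regions of the 10 min experiment. Counts for the 10 genes are therefore set beside the same counts over all protein-coding genes or all regions, where these were computed. As a check of the cell type, 3 of 8 epithelial markers had a region at the TSS in the vehicle list and 4 in each of the other lists. Krt8, Krt18 and Grhl2 had one in all 3 lists, Cldn4 in the TGFβ list, and Cdh1 in the 10 min list alone. The epithelial markers Epcam, Cldn7 and Esrp1 had none. Of 8 markers of blood, endothelial, muscle and neural lineages, 0 had a region at the TSS in any list, against the same shares of all genes. The TGFβ list had an interval 30 bp from the TSS of the endothelial marker Cdh5 that was not kept as a region. The epithelial counts were near the shares of all genes, so they alone do not mark the cells as epithelial.

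Most of these genes had an accessible start in every list. In the vehicle list 9 of the 10 had a region at the TSS, against 41% of all protein-coding genes. In the TGFβ list it was 10 of 10 against 47.6%, and in the 10 min list 10 of 10 against 46.3%. The region was present in all 3 lists for 9 of 10, against 39.9%. Spry4 was the exception. It was the 1 gene of 10 with a region at the TSS in the TGFβ list and not in the vehicle list, a state that held for 7.24% of all genes. The converse state was found in 0 of 10, against 0.622% of all genes.

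**Figure D1:**
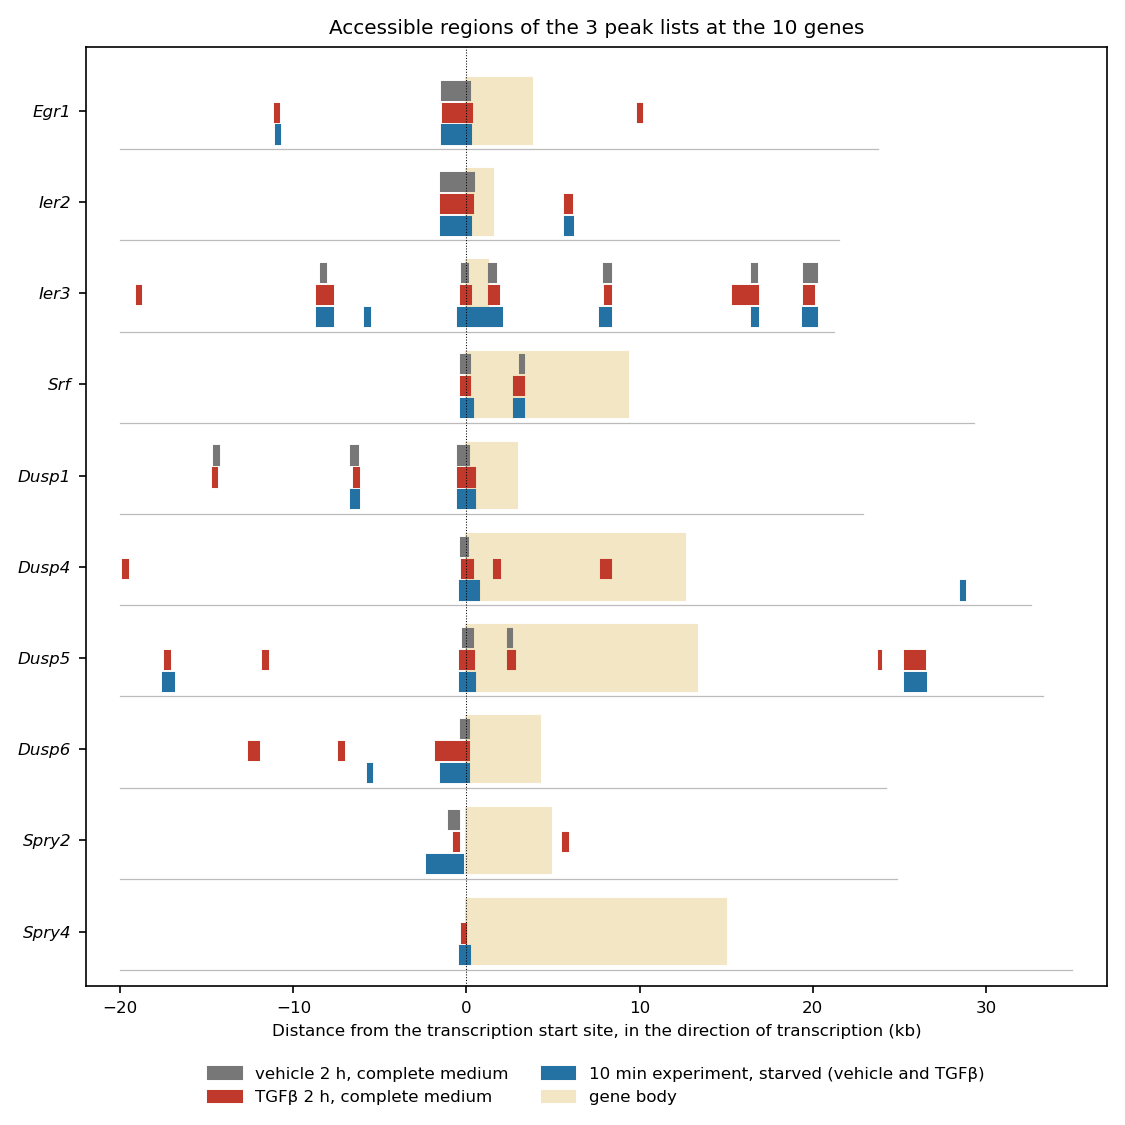
Regions of the vehicle list (grey), the TGFβ list (red) and the 10 min list (blue) at the 10 genes, by distance from the TSS in kb in the direction of transcription, with gene bodies shaded and the window of each gene as a thin line. Regions at the TSS are in all 3 lists for 9 genes, and TGFβ-only regions lie at 8 genes, mostly away from the TSS.

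The letters of factor binding elements were searched at the starts. Start sequences are shown for Srf and Dusp5, whose starts hold CArG boxes, and for Ier2 and Dusp1, whose starts hold the cyclic AMP response element (CRE). Each runs 5′ to 3′ along the gene, with the motif matches in capitals. The motifs searched for this set, on both strands, were the CArG box by name, TGACGTCA for the CRE, CCGGAAG for ETS factors and GCGNGGGCG for EGR factors. In Srf the capitals mark in order an ETS match, an EGR match and a pair of CArG boxes, and in Dusp5 a pair of adjoining CArG boxes. All were read from the NCBIM37 (mm9) genome.
Srf, chr17:46693144-46693253, minus strand: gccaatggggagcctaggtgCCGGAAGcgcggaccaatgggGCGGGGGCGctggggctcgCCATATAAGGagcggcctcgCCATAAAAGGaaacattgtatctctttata
Dusp5, chr19:53603533-53603592, plus strand: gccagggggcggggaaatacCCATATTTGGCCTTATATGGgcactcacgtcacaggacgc
Ier2, chr8:87186769-87186816, minus strand: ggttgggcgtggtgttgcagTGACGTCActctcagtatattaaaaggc
Dusp1, chr17:26645533-26645580, minus strand: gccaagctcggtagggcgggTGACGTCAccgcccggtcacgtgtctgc
The Srf sequence ends 33 bases before the TSS, and the Dusp5 sequence ends 7 bases before it. In both genes all CArG boxes shown lay inside the region at the TSS of the vehicle, the TGFβ and the 10 min list. The same was true of the CREs of Ier2 and Dusp1.

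Taking 500 bp before to 100 bp after the TSS, 3 of 10 genes held a CArG box, against 2.91% of all protein-coding genes. A CRE was found in 2 of 10, against 2.72%. ETS matches were found in 2 of 10, against 14.0%, and EGR matches in 2 of 10 (Srf and Spry2), against 10.1%. A SMAD match, GTCTAGAC or CAGACA, was found in 3 of 10 (Ier3, Dusp1 and Dusp5), against 36.5%. The AP-1 letters TGANTCA were in 0 of 10 of these windows, against 13.5%. These matches are properties of the sequence and do not show that a factor was bound. Outside the starts, the TGFβ and 10 min regions in an intron of Srf held 1 CArG box that lay beyond the edge of the narrower vehicle region there.

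**Figure D2:**
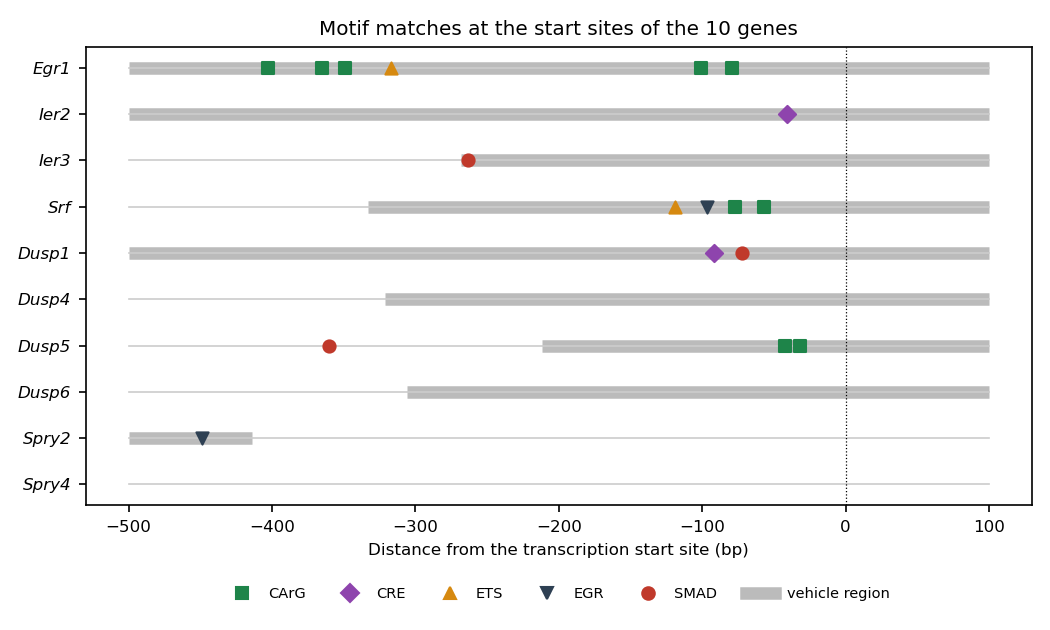
Motif matches (symbols) from 500 bp before to 100 bp after the TSS of each gene, with the part covered by the vehicle region at the TSS in grey. CArG boxes lie in the starts of Egr1, Srf and Dusp5 and the CREs in those of Ier2 and Dusp1, all on the grey bars, and Spry4 has neither a motif match nor a vehicle region.

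Among the transcription factors, Egr1 encodes a zinc-finger protein and is among the first genes to respond to growth factors. It lies at chr18:35020861-35024638. Its start held 5 CArG boxes and 1 ETS match, all inside the region of each list. That region was 1622 bp wide in the vehicle list, 1700 bp in the TGFβ list and 1648 bp in the 10 min list and joined 2, 4 and 3 intervals. The interval over the TSS itself was 696, 498 and 756 bp wide. The highest score in the region was 656 in the vehicle list, the cap of 1000 with TGFβ and 953 at 10 min. For the interval over the TSS it was 543, 811 and 953, so the vehicle and TGFβ maxima came from intervals upstream. The window of Egr1 held 1 vehicle region, 3 TGFβ regions and 2 regions of the 10 min list. Both TGFβ-only regions were intergenic. The higher-scoring one (777) ended 10828 bp upstream of the TSS, was 209 bp wide and was in the 10 min list as well. The other (730) began 9883 bp downstream of the TSS and was in the TGFβ list alone.

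Srf, at chr17:46683788-46693111 on the minus strand, encodes serum response factor itself. It had the same number of regions in every list, with 2 vehicle regions, 2 TGFβ regions and 2 regions of the 10 min list. The region at the TSS was 541, 516 and 733 bp wide in these lists. The other lay in an intron and began 3065 bp downstream of the TSS in the vehicle list, where it was 259 bp wide. In the TGFβ list the intronic region was 548 bp wide, with intervals of 263 and 210 bp joined, and in the 10 min list 568 bp. No TGFβ-only region was found in the window of Srf.

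Ier2 and Ier3 encode small immediate-early proteins. Ier2 is linked to cell motility and Ier3 to survival under stress. At Ier2, chr8:87185230-87186751 on the minus strand, the region at the TSS was 1891 bp wide in the vehicle list, 1851 bp in the TGFβ list and 1757 bp in the 10 min list. In each list it joined 2 intervals across a gap, and the one over the TSS was 561, 535 and 460 bp wide. The region also came within 1000 bp of the TSS of Gm2529. The second region of Ier2 was TGFβ-only. It lay at chr8:87180642-87181065, beginning 5686 bp downstream of the TSS and past the end of the gene, with a score at the cap of 1000. The 10 min list held it with a score of 706. None of the searched motifs was found in it.

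The window of Ier3 was the most crowded, with 6 vehicle regions, 7 TGFβ regions and 6 regions of the 10 min list. Ier3 lies at chr17:35958629-35959868. Several of these regions were at the starts of the neighbours Flot1, Tubb5 and Mdc1 and cannot be credited to Ier3. The region at the TSS of Ier3 was 379 bp wide in the vehicle list and 580 bp in the TGFβ list. In the 10 min list it was 2518 bp wide because it was joined to the start of Flot1, so that width is not one of Ier3 alone. The 1 TGFβ-only region was 257 bp wide with a score of 621 and ended 18790 bp upstream of the TSS. A further upstream region, ending 8122 bp before the TSS in the vehicle list, was in all 3 lists and was 307 bp wide in the vehicle list and 926 bp in the TGFβ list, where intervals of 544 and 301 bp were joined. It held 1 AP-1 match in the vehicle list and 2 in the TGFβ list.

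Dusp1 encodes a nuclear phosphatase that acts on p38 and JNK as well as ERK. It lies at chr17:26642535-26645464 on the minus strand. Its region at the TSS was 668 bp wide in the vehicle list, 1020 bp in the TGFβ list and 993 bp in the 10 min list. The extra width in the TGFβ list lay wholly on the transcribed side, which reached 157 bp past the TSS in the vehicle list and 509 bp in the TGFβ list, while the upstream edge was at 510 bp in both. The window held 3 regions in the vehicle list and 3 in the TGFβ list, all of them shared. Like Srf, Dusp1 had no TGFβ-only region. An upstream region 6249 bp from the TSS in the vehicle list was in all 3 lists and held 2 AP-1 matches in each. The region 14282 bp upstream was missing from the 10 min list.

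Dusp4, a nuclear phosphatase of ERK, had 1 vehicle region, 4 TGFβ regions and 2 regions of the 10 min list. It lies at chr8:35870351-35882948. The region at its TSS was 430, 635 and 1096 bp wide in the vehicle, TGFβ and 10 min list, at the cap in each. The 3 TGFβ-only regions were in the TGFβ list alone. Their scores were 706 for the region upstream of the gene and 561 and 540 for those in its introns, which began 1579 and 7783 bp downstream of the TSS. The value of 540 is the lowest in the list. The upstream region is at chr8:35850497-35850793, 19558 bp from the gene body and thus just inside the window. A region 28563 bp downstream of the TSS, in an intron of Tnks, was in the 10 min list only.

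Dusp5, a nuclear phosphatase specific for ERK, had the most TGFβ-only regions of the 10 genes. It lies at chr19:53603599-53616921. Its window held 2 vehicle regions, 6 TGFβ regions and 3 regions of the 10 min list. The region at its TSS was 587, 821 and 907 bp wide in these lists, at the cap in each. An intronic region that began 2393 bp downstream in the vehicle list was shared with the TGFβ list and missing from the 10 min list. Of the 4 TGFβ-only regions, 2 lay upstream and 2 downstream of the gene. The widest, chr19:53628917-53630098, began 25318 bp downstream of the TSS, was 1182 bp wide from intervals of 403 and 601 bp with 7 summits in all, and was at the cap of 1000. It was also in the 10 min list, there 1207 bp wide with a score of 624. The farthest upstream region scored 939 and was also in the 10 min list (928). The remaining regions scored 649 and 712 and were in the TGFβ list alone.

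Dusp6 encodes the cytoplasmic phosphatase of ERK. It lies at chr10:98725865-98730122. Between the vehicle and TGFβ lists it had the largest contrast in region width at a start, with 439 and 1887 bp. In the 10 min list the region was 1639 bp wide. The interval over the TSS itself was almost the same in each list, at 439, 431 and 439 bp. The difference came from an added interval upstream, 663 bp wide with a score of 979 at chr10:98724105-98724767 in the TGFβ list, and 427 bp wide with a score of 693 in the 10 min list. It was close enough to be joined, and the vehicle list had no interval there. The window held 1 vehicle region, 3 TGFβ regions and 2 regions of the 10 min list. The TGFβ-only regions ended 7100 and 11978 bp upstream of the TSS, with scores of 874 and 778, and were in the TGFβ list alone. Just outside the window, 20438 bp from the gene body, the vehicle list held a further region at the cap that the TGFβ list shared.

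The AP-1 letters TGANTCA were present in TGFβ-only regions at the DUSP genes. They were in 7 of 9 such regions at Dusp4, Dusp5 and Dusp6 and in 0 of 6 at the other genes, a split made after the values were seen. All 4 regions at Dusp5 held a match. The regions of at most 300 bp are shown whole, and the others as their first match with 20 bases on each side. The far downstream region of Dusp5 held 2 matches, of which 1 is shown. Each is on the plus strand of NCBIM37, which is the coding strand of all 3 genes. Capitals mark AP-1 matches and, in the first sequence, also SMAD matches. The first holds in order 2 SMAD matches, 1 AP-1 match and 1 SMAD match, and every other sequence holds 1 AP-1 match.
Dusp4 upstream, chr8:35850497-35850793: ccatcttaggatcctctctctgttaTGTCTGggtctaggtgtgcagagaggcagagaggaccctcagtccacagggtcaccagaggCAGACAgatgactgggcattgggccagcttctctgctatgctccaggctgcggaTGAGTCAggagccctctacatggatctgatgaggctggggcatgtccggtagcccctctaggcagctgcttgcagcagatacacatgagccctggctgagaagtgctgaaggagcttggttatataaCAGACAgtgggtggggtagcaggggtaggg
Dusp4 intron, chr8:35878367-35878413: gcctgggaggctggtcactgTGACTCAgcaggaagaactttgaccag
Dusp5 far upstream, chr19:53586203-53586446: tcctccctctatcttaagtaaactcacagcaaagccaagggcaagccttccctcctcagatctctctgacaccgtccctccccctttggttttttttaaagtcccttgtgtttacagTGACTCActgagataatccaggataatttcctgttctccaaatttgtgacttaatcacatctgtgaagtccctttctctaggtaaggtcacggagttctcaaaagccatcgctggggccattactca
Dusp5 upstream, chr19:53591860-53592107: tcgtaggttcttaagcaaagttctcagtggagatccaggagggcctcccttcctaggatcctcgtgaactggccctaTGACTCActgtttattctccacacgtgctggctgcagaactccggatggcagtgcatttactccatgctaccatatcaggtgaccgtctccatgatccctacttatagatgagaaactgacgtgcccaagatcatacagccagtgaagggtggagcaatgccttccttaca
Dusp5 downstream, chr19:53627420-53627569: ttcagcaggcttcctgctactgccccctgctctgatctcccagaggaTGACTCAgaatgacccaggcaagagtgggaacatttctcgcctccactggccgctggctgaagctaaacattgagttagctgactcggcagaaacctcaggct
Dusp5 far downstream, chr19:53629143-53629189: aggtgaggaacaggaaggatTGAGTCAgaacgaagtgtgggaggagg
Dusp6 upstream, chr10:98713584-98713630: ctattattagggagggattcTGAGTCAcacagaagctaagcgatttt
The capitalised AP-1 letters read TGACTCA or TGAGTCA in every line. Over all 10 genes, 7 of 15 TGFβ-only regions held the letters, a share of 46.7% against 45.4% of all 20184 TGFβ-only regions. The share was thus near the background. Within 200 bp of the region centre it was 8 of 15 (53.3%) against 44.6%. The added match lay near the region of Spry2, outside its edges, so by this rule 1 of the 6 regions at the other genes had one. For the SMAD letters it was 3 of 15 (20%) within the same distance, against 40.5%. CArG boxes were in 0 of 15, against 1.97%, and ETS matches in 2 of 15 (13.3%), at Ier3 and Spry2, against 3.09%.

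Spry2 encodes a Sprouty inhibitor of receptor tyrosine kinase signalling. It lies at chr14:106291166-106296036 on the minus strand. All 3 lists had a region upstream of its annotated TSS without reaching it. The nearest edge was 414 bp away in the vehicle list, 430 bp in the TGFβ list and 230 bp in the 10 min list. The widths were 593, 278 and 2074 bp, the last of intervals of 1006 and 479 bp joined over a gap. The vehicle list had a further interval of 138 bp beside its region, below the minimum width. That interval was nearer the TSS, at 205 bp, and scored 823, against 726 for the region kept. The 1 TGFβ-only region scored 970, was 312 bp wide and began 5573 bp downstream of the TSS, past the end of the gene.

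Spry4, at 15001 bp the longest of the 10 genes, encodes the other Sprouty protein. It lies at chr18:38745922-38760922 on the minus strand. The vehicle list had no region in its window, and its nearest vehicle interval was 82922 bp from the TSS. The TGFβ list had 1 region, 261 bp wide with a score at the cap of 1000, whose edge was 16 bp upstream of the TSS. The 10 min list had 1 region, 601 bp wide with a score of 711, that covered the TSS. Both overlapped the start of the neighbouring genes 9630014M24Rik and Arhgap26, which run the other way, so the start cannot be told apart from theirs.

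**Figure D3:**
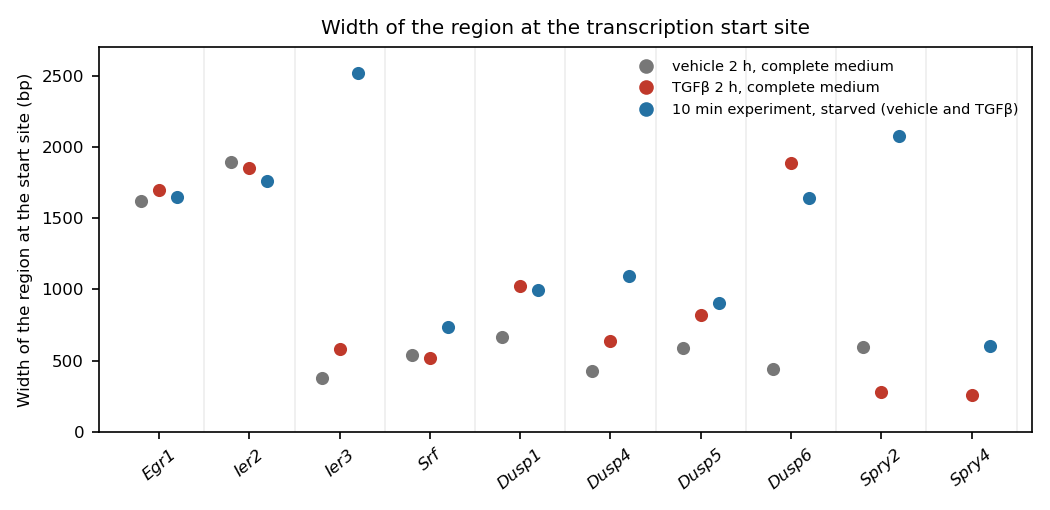
Width in bp of the region at the TSS of each gene in the vehicle list (grey), the TGFβ list (red) and the 10 min list (blue). Dusp6 goes from 439 bp in the vehicle list to 1887 bp in the TGFβ list, Egr1 and Ier2 have regions of joined intervals with similar widths in all 3 lists (1622 to 1700 bp and 1757 to 1891 bp, gaps included), and Spry4 has no vehicle point.

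The widths of the starts differed little from the background in direction. Of the 9 genes with a region at the TSS in both complete-medium lists, 6 had the wider one in the TGFβ list, against 64.9% of 9024 such genes. For 3 of 9 (Ier2, Srf and Spry2) it was narrower there, against 34.7%. The median ratio of TGFβ to vehicle width was 1.40 for the 9 genes and 1.10 for all such genes, whose quartiles were 0.934 and 1.52. Dusp6 with 4.30, Ier3 with 1.53 and Dusp1 with 1.53 were above the upper quartile, and Spry2 with 0.469 was below the lower. These directions depended on the joining. Taking only the interval nearest the TSS, a setting added after the values were seen, 4 of 9 (Ier3, Dusp1, Dusp4 and Dusp5) were wider in the TGFβ list, against 55.5%, and 5 of 9 were narrower, against 44.1%.

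The scores at the starts were low in the vehicle list for most of these genes. This comparison was added after the values were seen. Only Dusp4, Dusp5 and Dusp6 were at the cap in the vehicle list, 3 of 9 against 56.5% of all genes with a region at the TSS there. The other scores in that list ran from 656 for Egr1, in an upstream interval, to 915 for Ier3. In the TGFβ list 9 of 10 were at the cap, against 71.2%, and Ier2 was at 941, a score of its upstream interval. In the 10 min list 7 of 10 were at the cap, against 58.8%, and Egr1 (953), Spry2 (860) and Spry4 (711) were not. Egr1, Ier3, Srf, Dusp1 and Spry2 were below the cap in the vehicle list and at it in the TGFβ list, 5 of 9 against 26.3%. Judged by the interval nearest the TSS, Egr1 (811) and Ier2 (829) were below the cap with TGFβ. The counts at the cap were then 3 of 9 in the vehicle list against 54.6%, 8 of 10 with TGFβ against 68.4% and 7 of 10 at 10 min against 57.3%. By that rule 4 of 9 moved from below the cap to it, against 26.1%. The score reflects the agreement behind each list, and scores of different lists are given side by side without a test.

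**Figure D4:**
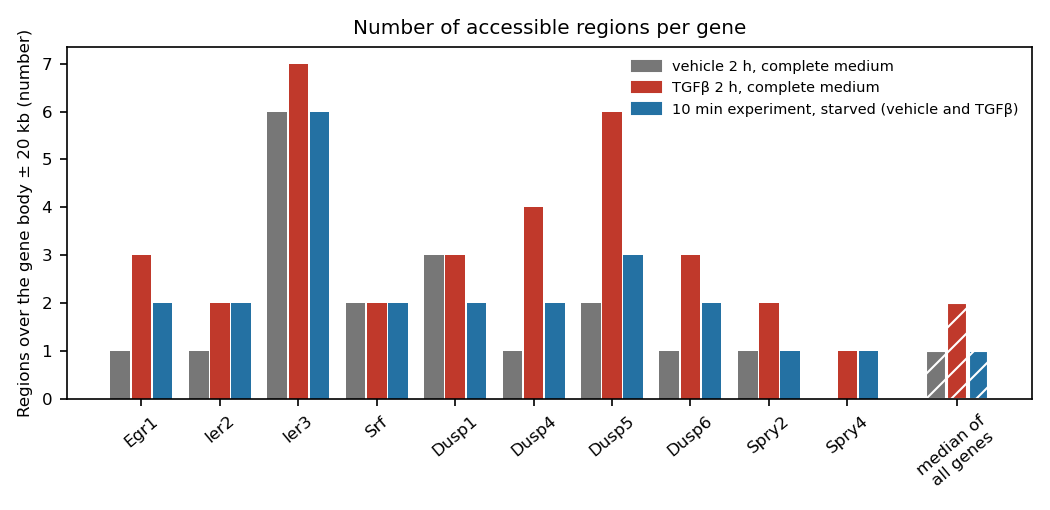
Number of regions over the gene body ± 20 kb for each gene in the vehicle list (grey), the TGFβ list (red) and the 10 min list (blue), with the median of all 22350 protein-coding genes hatched at the right. The TGFβ bar is the tallest for Egr1, Ier3, Dusp4, Dusp5, Dusp6 and Spry2, and Srf is level at 2 in all 3 lists.

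Over the whole windows, the 10 genes held 18 vehicle regions, 33 TGFβ regions and 23 regions of the 10 min list. The median was 1, 3 and 2 regions per gene, against 1, 2 and 1 over all genes. The windows of these short genes had a median of 44.6 kb, against 55.4 kb over all genes. Per 100 kb of window the medians were 2.35, 6.82 and 4.54 regions, against 1.48, 2.36 and 1.95. Genes with a start in the vehicle list, of which there were 9163, are a closer comparison. Their medians were 2, 3 and 2 regions per gene, in windows with a median of 64.5 kb. By number of regions per gene the 10 genes were thus not above them. Per 100 kb their medians were 2.48, 3.91 and 3.31 regions. The 10 genes were above these values in the TGFβ and 10 min lists only, and in shorter windows.

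More regions were counted in the TGFβ than in the vehicle list at 8 of 10 genes, against 48.2% of all genes and 56.9% of those with a start in the vehicle list. Srf and Dusp1 had equal numbers. Fewer were counted at 0 of 10, against 2.07%. The same 8 genes had at least 1 TGFβ-only region, against 50.2% of all genes and 59.6% of those with a start in the vehicle list. Of the 8 markers of other lineages, 7 had more TGFβ regions and 7 had a TGFβ-only region. Of the 8 epithelial markers, 4 and 6 did. Neither state is thus particular to the 10 genes. A TGFβ-only region at the cap was found at 3 of 10 (Ier2, Dusp5 and Spry4), against 11.3% of all genes and 14.2% of those with a start in the vehicle list. A vehicle-only region was found at 0 of 10, against 6.93% and 9.57% of these 2 sets of genes. A region in the 10 min list only was found at 3 of 10 (Ier3, Dusp4 and Dusp6), against 16.8% and 21.1%.

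Counted by region, 15 of the 33 TGFβ regions were TGFβ-only, or 45.5% (95% Wilson interval 29.8 to 62.0%), and the share over the whole TGFβ list was 52.4%. The 33 include 4 regions, and the 18 vehicle regions include 4, that lay only at the TSS of another gene. All of these were in both lists, so they lower the TGFβ-only share. None of the 18 vehicle regions was vehicle-only, which allows up to 17.6%, and the share over the whole list was 6.44%. Of the 15 TGFβ-only regions, 5 were also in the 10 min list, or 33.3% (15.2 to 58.3%), against 31.5% over the whole list. These intervals cover counting error only. At each of these measures the share over the whole list lay within the counting interval for the regions of the 10 genes. Those intervals are wide because the regions are few. Regions overlapping between lists formed 35 places. Of these, 15 were in all 3 lists, 10 in the TGFβ list alone, 5 in the TGFβ and 10 min lists, 2 in the vehicle and TGFβ lists and 3 in the 10 min list alone. The median width was 280 bp for the TGFβ-only regions, 281 bp for all such regions of the TGFβ list, and 607 bp for the TGFβ regions of these genes that the vehicle list shared. GC content was highest at the starts, with a median of 65.6% in the TGFβ list against 52.5% in the other TGFβ regions of these genes.

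The TGFβ list is the longer one, and the count of TGFβ-only regions depended on that. When the TGFβ list was cut at the length of the vehicle list, keeping the 19648 regions with the best scores, 5 TGFβ-only regions were left at 4 genes: 1 at Ier2, 2 at Dusp5, 1 at Spry2 and 1 at Spry4. The lowest score kept was 904. In that setting 3 vehicle-only regions appeared, 1 each in the windows of Ier3, Dusp1 and Dusp5, and that of Ier3 was the start of Flot1. The vehicle list was not cut by score. The TGFβ regions that overlapped these 3 scored 825, 787 and 667 and were removed by the cut, so the vehicle-only calls follow from it. The shares over all regions were then 23.8% TGFβ-only and 23.6% vehicle-only. Lists of equal length make such shares nearly equal by construction.

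The other genes of the pathway were described in the same way. Of 15 other immediate-early genes, 10 had a vehicle region at the TSS, 14 had one with TGFβ and 13 at 10 min. A TGFβ region and no vehicle region at the TSS was found at 4 of 15, against 7.24% of all genes. These were Junb, a subunit of AP-1, Egr3, a relative of Egr1, Nr4a1, an orphan nuclear receptor, and Myc, a regulator of growth. At Junb the nearest vehicle interval was 1033 bp from the TSS, just outside the 1000 bp limit. At Egr3 and Nr4a1 it was 2683 and 17067 bp away. All 4 but Egr3 also had a region at the TSS at 10 min. Egr4 had no region at the TSS in any list. The most TGFβ-only regions in this group were 3, at Egr3, Nr4a1, Myc and Zfp36, a regulator of mRNA decay. Myc was like Spry4 in having no region in its window in the vehicle list, and it had 3 in the TGFβ list. Its nearest vehicle interval was 50272 bp from the TSS.

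Of 11 other feedback genes, 9 had a vehicle region at the TSS, 9 had one with TGFβ and 9 at 10 min, and Dusp2 and Dusp9 had none. More regions were counted in the TGFβ than in the vehicle list at 9 of 11, against 48.2% of all genes. Fewer were counted at 1, Dusp9, against 2.07%. Dusp16, a phosphatase of JNK and p38, had the most TGFβ-only regions of this group with 6 in a window of 117 kb. Dusp10 had 3 in a window of 102 kb. Of 17 genes of the cascade from receptor to kinase, 15 had a vehicle region at the TSS, 17 had one with TGFβ and 16 at 10 min. The kinase genes Araf and Braf had a region at the TSS with TGFβ and at 10 min and no vehicle region there. Sos2, an activator of RAS, had none at 10 min. Egfr, the receptor of epidermal growth factor, had 6 TGFβ-only regions in a window of 206 kb. Araf and Ksr1 had 4 each in windows of 103 and 173 kb. Of 6 nuclear effectors, 5, 6 and 6 had a region at the TSS in the 3 lists. Elk3, a ternary complex factor, had no vehicle region at the TSS. The coactivators of serum response factor Mkl1 and Mkl2 had 7 TGFβ-only regions each in windows of 218 and 201 kb. Srf had 0 in a much shorter window of 49.3 kb, so these counts are not directly comparable.

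**Figure D5:**
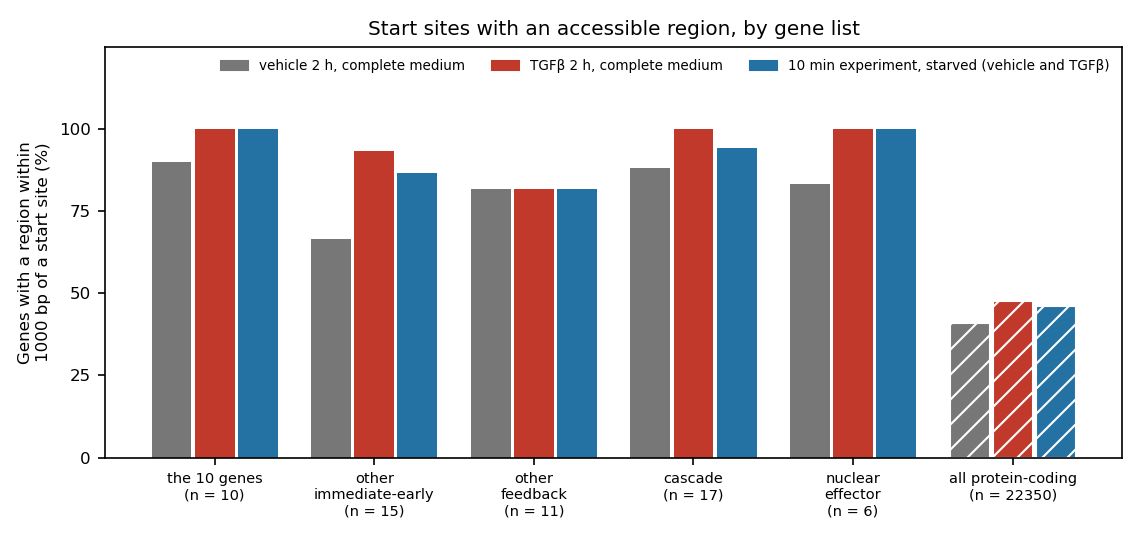
Share in percent of genes with a region within 1000 bp of a TSS in the vehicle list (grey), the TGFβ list (red) and the 10 min list (blue), for the 10 genes, 4 lists of other pathway genes and all protein-coding genes (hatched). The pathway lists stand above all protein-coding genes in each list, and the other immediate-early genes have the largest step between the vehicle list (10 of 15) and the TGFβ list (14 of 15). That step includes Junb, whose nearest vehicle interval was 1033 bp from the TSS.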

How the data were processed

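ATAC-seq peak lists were taken as deposited. Per the study's methods, the authors ran the ENCODE ATAC-seq pipeline: reads were aligned to mm9, peaks were called with macs2 (MACS2 2.1.2 per the submitters' processing notes), and peaks were retained at an IDR of at most 0.05. The value column of the deposited lists is a score, the authors' scaled IDR from 540 to 1000, with 1 line per summit. The lists hold no read counts, so depth cannot be read from them. The study's reporting summary gives fewer mapped and filtered reads for the TGFβ than for the vehicle library in complete medium. The number of peaks also depends on depth and on replicate agreement, and their part in the list lengths was not tested. What served as replicates is not given by the labels, which list 1 sample per group.

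Intervals under 150 bp were dropped and gaps under 1000 bp merged, as in the study. Regions were placed on GENCODE vM1 and motifs were searched in the NCBIM37 (mm9) genome. No interval reached past a chromosome end. Merging, overlap and motif search were tested on simulated data. Python 3.11.15, NumPy 2.4.6, SciPy 1.17.1 and matplotlib 3.10.9 were used. With 1 list per condition only counts, shares with 95% Wilson intervals and medians are given, and no p-value. The genes, lists and rules were chosen with earlier results of these data known. All 10 genes were described, then of other pathway genes those called in some lists only and the 2 per list with the most TGFβ-only regions, ties included. Dusp8 has 2 identifiers and the longer was used, and Spry3 is not in the annotation. Alternatives covered width, merging, score, list length, windows, overlap rule, background and motif window, and, added after the values were seen, the interval nearest the TSS.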

Additional observations from a re-analysis of the deposited data

How the results depend on the processing

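No paired analysis was possible because the groups are 1 list each, without replicate numbers, and there was no replicate to leave out. Of 137 values recomputed under an alternative, 97 stayed within 1.5 times the value reported (or, for a share, within its interval) and 40 did not.

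With a minimum width of 300 bp, the TGFβ list gave 20 regions at these genes, 8 of them TGFβ-only, with 2 vehicle-only regions and 5 genes with more TGFβ regions, against 34.1% of all genes. With peaks at or above the median score of their list (925 for vehicle, 963 for TGFβ, 892 at 10 min), 3 genes kept a region at the TSS in the vehicle list, against 26.4% of all genes. That setting left 6, 16 and 14 regions in the vehicle, TGFβ and 10 min lists, 68.8% of the TGFβ regions TGFβ-only, and 1 vehicle-only region. The shares of TGFβ-only and vehicle-only regions over the whole lists were not computed for the 300 bp and the median-score settings. These values therefore have no background, and the 52.4% of the main setting does not apply to them. With the TGFβ list as short as the vehicle list, 20 TGFβ regions were left, 5 TGFβ-only (25%) at 4 genes, against 23.8% of all regions kept. The cut also made 3 vehicle regions vehicle-only. In that setting 4 genes had more TGFβ regions, against 12.5% of all genes, and 2.26% of all genes had a TSS region in the TGFβ list alone.

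With a flank of 5 kb there were 17 TGFβ and 12 10 min regions, 5 TGFβ-only (29.4%) at 4 genes, and 4 genes with more TGFβ regions, against 32.2% of all genes. With a flank of 50 kb there were 31, 62 and 42 regions, 33 TGFβ-only (53.2%) and 2 vehicle-only. The share over the whole TGFβ list, 52.4%, does not depend on the flank. With the interval nearest the TSS in place of the joined region, a setting chosen after seeing the data, 5 of 9 genes were narrower at the TSS in the TGFβ list, where 3 of 9 were by the joined region. Judged by region centres, 1 vehicle-only region appeared. Over genes with a vehicle TSS region, the shares with a TSS region were 100%, 98.5% and 98.2% and that in the TGFβ list alone 0%, by construction. Searching from 250 bp before to 50 bp after the TSS left 1 gene each with an ETS, EGR and SMAD match. Searching whole regions left 1 of 15 TGFβ-only regions with an ETS match, against 2.94% of all such regions. The cause of the other shifts was not tested beyond the fewer or more regions each setting admits.

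Lists without read counts or replicates cannot separate accessibility from depth or peak-calling sensitivity. A gene absent from a list was not detected there.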
